A study of Mus musculus with 45 samples.

Results

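The Cd209 family genes Cd209a, Cd209b, Cd209d, Cd209f and Cd209g were described across macrophages sorted from mouse skeletal muscle before and after cardiotoxin injury. They are 5 of the 19752 genes with a probe set (the group of probes summarized as 1 value) annotated to a single symbol on the Affymetrix Mouse Gene 1.0 ST arrays. The 5 genes were chosen by their measured levels in these 45 arrays, including the contrasts of MHCII+ with MHCII- cells and of the days. Levels in those contrasts are therefore given as a description with no test. The genotype contrast was not named in that choice and was tested, although earlier results of these data were known when the genes were chosen. Each gene had a single probe set, and all 5 reached the intensity filter of log2 7.57 in at least 1 group; they did so in 16 (Cd209a), 8 (Cd209b), 16 (Cd209d), 14 (Cd209f) and 12 (Cd209g) of 18 groups. Cd209f had the widest range of the 5, from 5.38 to 13.36 over the arrays, and Cd209b the narrowest, from 6.73 to 10.63.

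CD209 proteins, the DC-SIGN family, are C-type lectins: receptors that use calcium to bind mannose- and fucose-rich sugars on microbes, on intercellular adhesion molecules and on altered self glycoproteins, and pass them to endocytosis. The human family is small, whereas the mouse genes multiplied into a cluster on chromosome 8. Cd209a (CIRE or DC-SIGN) is known from dendritic cells and monocyte-derived cells. Cd209b (SIGNR1) is known from marginal zone and peritoneal macrophages, where it takes up bacterial polysaccharides. Cd209d (SIGNR3) can signal in response to mycobacteria. Less is known of Cd209f (SIGNR8) and Cd209g (SIGNR7), which appear among the genes of tissue-resident macrophages.

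The mice were male C57Bl6 that carried (DTR+) or lacked (DTR-) Foxp3.DTR, a diphtheria toxin receptor driven by Foxp3, so that diphtheria toxin (DT) acts on regulatory T cells. Cardiotoxin, a snake venom toxin, kills muscle fibres, which then regenerate. The 24 h day 7 set came from mice aged 8 weeks and held 2 DTR+ and 4 DTR- MHCII+ arrays, and 3 DTR+ and 3 DTR- MHCII- arrays. The 8 h day 7 set came from mice aged 12 weeks, with 3 DTR+ and 3 DTR- MHCII+ arrays and 3 DTR+ and 4 DTR- MHCII- arrays. A day 7 set whose labels give no DT time came from mice aged 10 weeks and held MHCII+ cells alone, on 2 DTR+ and 2 DTR- arrays. Day 1 (24 h, 8 weeks) had 2 arrays for each genotype and subset. Day 4 (8 weeks) and day 0 (10 weeks, no injury) had 2 DTR- arrays per subset. All samples shared the sort for CD11b+ F4-80+ cells without Ly6g. The 8 h set and days 1 and 4 also left out SiglecF+ cells, and days 1 and 4 were gated on CD45+ DAPI- cells. Set, age and gate therefore cannot be told apart from day when sets are compared. The labels do not say from which moment the hours count or that samples are separate animals, so p-values measure the spread between samples.

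Values are log2 of the deposited intensity, and levels are compared within a gene only, since probe sets differ in brightness. H2-Ab1, a class II gene, ran from 13.67 to 14.01 over 24 MHCII+ arrays and from 7.81 to 12.45 over 21 MHCII- arrays, as the titles give them, although a marker entry in the labels contradicts most MHCII+ titles. The macrophage gene Adgre1 (F4/80) lay at 12.40 to 13.24 on all arrays. The genotype labels were not checked against the transgene, whose receptor is a human protein. Correlations across probe sets between arrays of a group were 0.976 to 0.998, and array medians ran from 174.7 to 203.7 intensity units. In bulk sorted samples, fewer cells that express a gene and less RNA per cell cannot be told apart.

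Along chromosome 8 the genes lie in the order Cd209a, Cd209e, Cd209d, Cd209b, Cd209c, Cd209f and Cd209g (RefSeq, GRCm38.p6). The promoter windows of Cd209f and Cd209g are shown because they share a long identical run, printed in capitals. The group means of these genes correlated at 0.91, less than those of Cd209b with Cd209g (0.96) and Cd209d with Cd209f (0.92). A link between the run and the levels was not tested. Each window starts before the annotated start of the gene and ends shortly after it. Cd209f lies on the minus strand at chr8:4105715-4106014 and Cd209g on the plus strand at chr8:4134486-4134785.
Cd209f: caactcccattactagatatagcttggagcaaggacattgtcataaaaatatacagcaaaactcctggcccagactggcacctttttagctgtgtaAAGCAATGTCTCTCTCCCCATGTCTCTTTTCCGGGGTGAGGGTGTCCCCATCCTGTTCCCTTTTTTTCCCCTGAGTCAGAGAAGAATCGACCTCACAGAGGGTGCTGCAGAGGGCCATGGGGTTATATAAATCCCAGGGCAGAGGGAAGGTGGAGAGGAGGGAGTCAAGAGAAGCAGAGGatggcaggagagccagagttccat
Cd209g: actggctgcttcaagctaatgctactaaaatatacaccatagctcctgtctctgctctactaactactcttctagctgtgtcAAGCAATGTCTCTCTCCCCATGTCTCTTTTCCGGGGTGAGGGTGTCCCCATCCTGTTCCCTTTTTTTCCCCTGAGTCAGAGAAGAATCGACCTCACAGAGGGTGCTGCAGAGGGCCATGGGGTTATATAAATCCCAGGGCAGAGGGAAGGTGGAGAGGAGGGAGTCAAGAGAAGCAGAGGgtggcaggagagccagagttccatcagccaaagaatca
The identical run spans 180 of the 300 bases. Over 281 aligned bases the windows were 91.8% identical. Each holds 1 match to the AP-1 motif TGANTCA, which 7.81% of 32851 RefSeq promoter windows of this length hold on either strand, and 1 match to the TATA box TATAAA (13.6% of windows); both matches lie inside the run. The probe sequences were not used here, so how far their probe sets measure each gene alone was not tested.

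Cd209a and Cd209b are shown as the pair with the longest shared run among Cd209a, Cd209b and Cd209d, a stretch of 17 bases in capitals. Both lie on the minus strand, Cd209a at chr8:3748935-3749234 and Cd209b at chr8:3926792-3927091.
Cd209a: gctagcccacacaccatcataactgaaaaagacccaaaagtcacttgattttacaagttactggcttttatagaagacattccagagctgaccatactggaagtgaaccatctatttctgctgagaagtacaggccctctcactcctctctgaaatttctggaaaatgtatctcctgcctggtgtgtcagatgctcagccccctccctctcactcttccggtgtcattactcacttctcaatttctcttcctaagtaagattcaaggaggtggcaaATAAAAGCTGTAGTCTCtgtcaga
Cd209b: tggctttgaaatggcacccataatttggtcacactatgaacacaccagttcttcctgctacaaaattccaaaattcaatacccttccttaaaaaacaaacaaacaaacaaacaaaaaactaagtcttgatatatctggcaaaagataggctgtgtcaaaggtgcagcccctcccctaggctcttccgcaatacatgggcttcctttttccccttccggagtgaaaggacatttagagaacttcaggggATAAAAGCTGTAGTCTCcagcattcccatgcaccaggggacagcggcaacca
These windows were 67.5% identical over 246 aligned bases, and that of Cd209d was 72.3% identical to Cd209a over 213 and 69.2% identical to Cd209b over 260. No window of the 5 held, on either strand, TTC and GAA 4 bases apart (the STAT6 motif), GAGGAAGT (PU.1) or GAAA repeated 2 bases on (the interferon response core), which 6.95%, 3.20% and 3.44% of all windows hold. Cd209a held 1 match to TATAAA, on the strand opposite to the one printed (TTTATA as printed), unlike the matches in Cd209f and Cd209g. These matches describe letters in a window and say nothing of binding.

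For each of the 5 lectins the group with the highest mean was one of uninjured muscle. At day 0 Cd209f was at 13.03 and 12.70 in MHCII+ arrays, against 13.14 and 13.36 in MHCII- arrays. Cd209d was at 13.02 and 12.78 in MHCII+ arrays and at 12.84 and 13.18 in MHCII- arrays, so its subsets overlapped. Cd209a was at 13.35 and 13.34 in MHCII+ arrays and at 11.71 and 12.03 in MHCII- arrays, with no overlap. Cd209b lay between 9.55 and 10.63 and Cd209g between 10.58 and 11.00 over the 4 day 0 arrays. Thus Cd209a alone had the higher mean in MHCII+ cells before injury, by 1.48 (2.78-fold), while 2 of 5 members, Cd209f and Cd209g, were lower on both MHCII+ arrays; 34.3% of all genes were lower in that way. One of the day 0 MHCII- samples stood apart in neutrophil genes: the mean log2 level of the neutrophil list (11 genes, 10 past the filter) was 10.48 in replicate 1 and 7.76 in replicate 2, against 6.87 to 6.88 in day 0 MHCII+ arrays. All 5 members were lower in that replicate than in replicate 2, and without it the MHCII+ minus MHCII- difference was 1.32 for Cd209a, -0.50 for Cd209f (-0.39 with it) and -0.41 for Cd209g (-0.27 with it). Replicate 2 lay above both MHCII+ arrays for Cd209b (10.63 against 9.55 and 9.90) and Cd209d (13.18 against 13.02 and 12.78). The overlap of the subsets for these genes thus rests on replicate 1. The part of neutrophils in these levels was not tested.

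**Figure D1:**
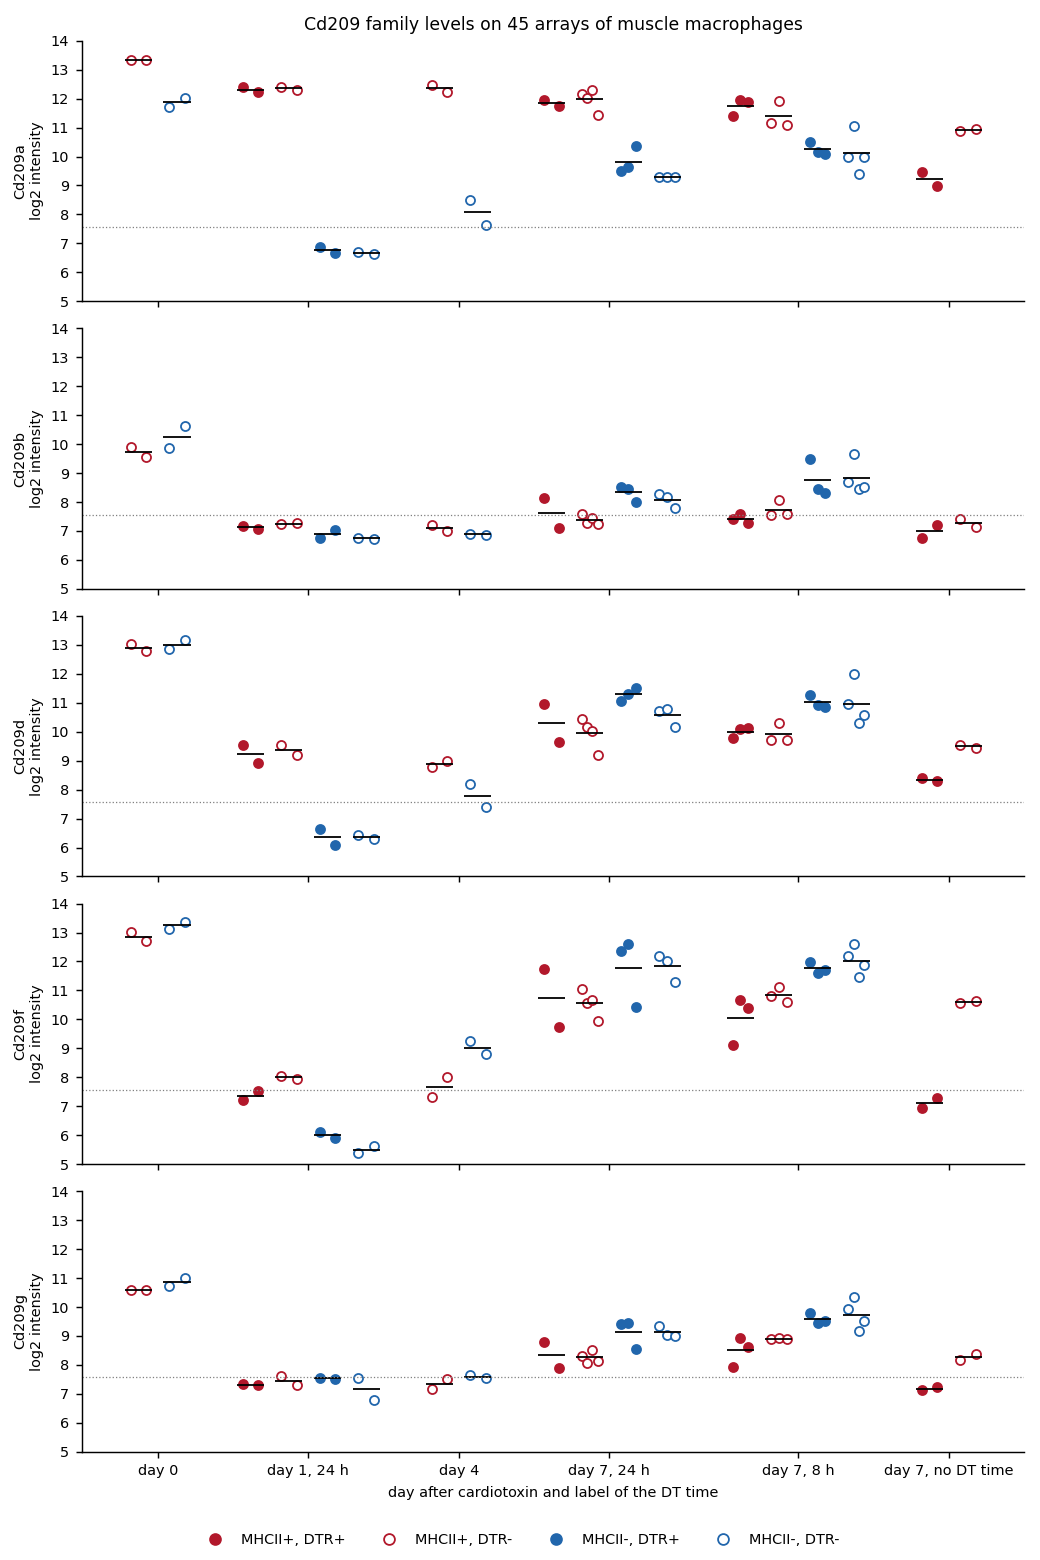
Log2 intensity of the 5 Cd209 genes (1 panel each) on 45 arrays, by day and set. Each point is an array, red for MHCII+ and blue for MHCII-, filled for DTR+ and open for DTR-, black lines are group means, and the dotted line is the filter at 7.57. Day 0 arrays are the highest for Cd209d and Cd209f, the blue points of day 1 are the lowest for Cd209a, Cd209d and Cd209f, and the filled red points of the last set lie below the open ones for Cd209a, Cd209d, Cd209f and Cd209g.

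One day after cardiotoxin the family was low in MHCII- cells, and Cd209a alone stayed high in MHCII+ cells. In DTR- MHCII- cells Cd209f was at 5.38 and 5.62 at day 1, against 13.14 and 13.36 at day 0, a measured log2 difference of -7.75. Cd209d was at 6.42 and 6.30 and Cd209a at 6.71 and 6.63 in the same day 1 arrays, and their day 1 minus day 0 differences were -6.65 and -5.20. These day 1 levels all lie below the filter, so the sizes of the 3 differences are uncertain. In MHCII+ cells Cd209f was at 8.04 and 7.95 and Cd209d at 9.53 and 9.20, with day 1 minus day 0 differences of -4.86 and -3.54. Cd209a was at 12.40 and 12.31 in these MHCII+ arrays, a difference of -0.99 from day 0 (1.98-fold). Cd209b (7.25 and 7.26 in MHCII+, 6.76 and 6.73 in MHCII- arrays) and Cd209g (7.61 and 7.29 in MHCII+, 7.54 and 6.78 in MHCII- arrays) were near or below the filter, where differences carry little information. All 5 members were lower on each day 1 array than on each day 0 array in both subsets; 37.6% of all genes were so in MHCII+ cells and 40.8% in MHCII- cells.

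At day 4 the members parted. In MHCII- cells Cd209f was at 9.24 and 8.80, above day 1 by 3.52, and Cd209a at 8.51 and 7.63 and Cd209d at 8.18 and 7.41 were above it by 1.40 and 1.44. With Cd209b, at 6.89 and 6.87 still below the filter, 4 of 5 members were higher on both day 4 MHCII- arrays than on both day 1 arrays, as were 43.3% of all genes. In MHCII+ cells Cd209f was at 7.33 and 8.02 and Cd209d at 8.77 and 8.98, and neither mean was above that of day 1. Cd209a was at 12.48 and 12.23 in MHCII+ cells at day 4, overlapping the arrays of day 1. The order of the subsets thus depended on the gene: Cd209f was higher in MHCII- cells at day 4 and Cd209a and Cd209d in MHCII+ cells.

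In the timed day 7 sets of DTR- mice the 4 members other than Cd209a were above day 4 in both subsets, Cd209a was above it in MHCII- cells, and all 5 were below day 0. For Cd209b in MHCII+ cells the 24 h and day 4 means (7.38 and 7.10) both lay below the filter. In DTR- MHCII- cells Cd209f was at 12.18, 12.02 and 11.28 in the 24 h set and at 12.18, 12.60, 11.47 and 11.88 in the 8 h set. Cd209d was at 10.73, 10.80 and 10.18 in the 24 h set and at 10.96, 11.98, 10.30 and 10.59 in the 8 h set. Cd209a was at 9.31, 9.30 and 9.31 in the 24 h set and at 9.99, 11.06, 9.40 and 9.97 in the 8 h set. All 5 members were above both day 4 MHCII- arrays in each set, where 26.2% (24 h) and 19.1% (8 h) of all genes were. All 5 were below both day 0 MHCII- arrays, with differences of -2.56 to -1.42 in the 24 h set and -2.05 to -1.12 in the 8 h set; 16.6% and 17.8% of all genes lay lower in that way.

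The MHCII+ cells of DTR- mice held Cd209f at a lower level than the MHCII- cells at day 7. It was at 11.04, 10.55, 10.69 and 9.93 in the 24 h set, at 10.80, 11.13 and 10.61 in the 8 h set and at 10.58 and 10.63 in the set with no DT time. These means lie 2.88, 3.17 and 2.93 above day 4, and every array is above both day 4 arrays. Cd209a went the other way: it was at 12.14, 12.04, 12.28 and 11.42 in the 24 h set, 11.16, 11.92 and 11.10 in the 8 h set and 10.88 and 10.94 in the set with no DT time, and its differences from day 4 were -0.38, -0.96 and -1.44. The 24 h arrays overlapped those of day 4 for Cd209a and the other sets did not. In all, 4, 4 and 3 of 5 members were higher on each array than at day 4 in these sets, where 10.4%, 36.0% and 30.6% of all genes were. The 24 h count includes Cd209b, whose lowest array there was at 7.23 and whose highest at day 4 was at 7.20. Both of its means lay below the filter, where differences carry little information. All 5 were below day 0 in each set, where 15.2%, 27.5% and 33.4% of all genes were.

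Genes used as markers of resident macrophages moved over the days as well. Of 15 such genes past the filter, among them the folate receptor gene Folr2 and the plasma selenoprotein gene Selenop, 15 were lower on both day 1 arrays than at day 0 in MHCII- cells and 11 in MHCII+ cells. The shares of all genes lower in that way were 40.8% and 37.6%. The mean level of that list was 12.41 to 12.45 at day 0, 10.39 to 10.52 at day 1, 11.44 to 11.49 at day 4 and 11.48 to 12.05 at day 7 in the MHCII- arrays of both genotypes in the timed sets. In MHCII+ arrays it was 11.34 to 11.53, 10.41 to 10.54, 10.44 to 10.45 and 10.68 to 11.39 at the same days. Monocyte markers ran opposite, at 9.86 to 10.32 at day 0 and 12.31 to 12.46 at day 1 in MHCII- arrays. The part that a change in cell makeup has in the lectin levels was not tested.

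The comparison of MHCII+ with MHCII- cells gave Cd209a and the other 4 members opposite directions at day 7. Cd209a was higher on every MHCII+ array in all 8 pairs of groups, by 5.69 at day 1 in DTR- mice (12.40 and 12.31 in MHCII+ against 6.71 and 6.63 in MHCII- arrays, the MHCII- level below the filter and the size therefore uncertain) and by 1.29 at the least, in the 8 h DTR- set. At day 1 in DTR- mice 4 of 5 members were higher on both MHCII+ arrays, as were 33.6% of all genes. Cd209d differed by 3.00, Cd209f by 2.50 and Cd209b by 0.51. The MHCII- means of Cd209d (6.36) and Cd209f (5.50) lay below the filter, so these sizes are uncertain too. Both Cd209b means (7.25 and 6.75) lay below it, where differences carry little information. At day 4, 2 of 5 members, Cd209f (-1.34) and Cd209g (-0.27), were lower on both MHCII+ arrays, as were 27.4% of all genes. The Cd209g means there were 7.33 in MHCII+ and 7.59 in MHCII- cells, below and just above the filter.

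At day 7 the means of Cd209b, Cd209d, Cd209f and Cd209g were lower in MHCII+ than in MHCII- cells in each of the 4 pairs. In DTR- mice 3 of 5 members (Cd209b, Cd209f and Cd209g) were lower on every MHCII+ array in both timed sets, as were 9.75% of all genes in the 24 h set and 6.00% in the 8 h set. Cd209f averaged 10.55 ± 0.46 in MHCII+ cells (SD, n = 4) and 11.83 ± 0.48 in MHCII- cells (SD, n = 3) in the 24 h DTR- set. It averaged 10.84 ± 0.26 in MHCII+ cells (SD, n = 3) and 12.03 ± 0.48 in MHCII- cells (SD, n = 4) in the 8 h DTR- set. Cd209d showed the same order of means but its arrays overlapped in DTR- mice. In the 24 h DTR+ set Cd209f overlapped, at 11.74 and 9.74 in the MHCII+ arrays and 12.36, 12.60 and 10.42 in the MHCII- arrays.

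**Figure D2:**
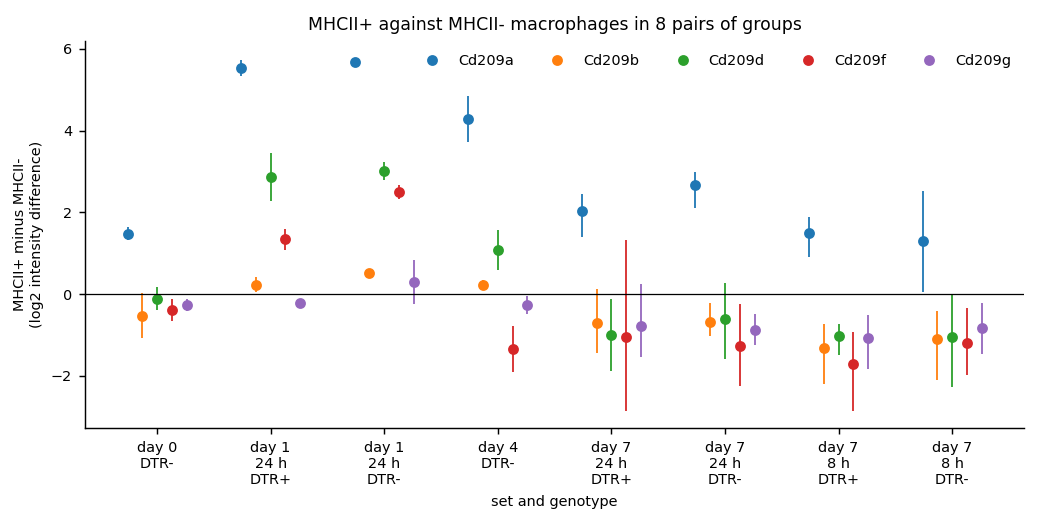
Difference of mean log2 intensity, MHCII+ minus MHCII-, for the 5 members in 8 pairs of groups. Points are differences of group means and lines reach from the smallest to the largest difference between an MHCII+ and an MHCII- array. Cd209a (blue) lies above 0 in all 8 pairs, while the other 4 members lie below 0 in the 4 day 7 pairs.

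Dendritic cell markers were also higher in MHCII+ arrays. The mean level of 11 such genes, of which 8 passed the filter, ran from 7.74 to 8.75 in MHCII+ and from 6.99 to 7.53 in MHCII- arrays. Among them Ccr7, a homing receptor of migrating dendritic cells, averaged 11.21 in MHCII+ and 7.40 in MHCII- cells at day 0, and 9.95 in MHCII+ and 7.47 in MHCII- cells of DTR- mice at day 1. Flt3, the receptor of a dendritic cell growth factor, averaged 8.63 in MHCII+ and 6.66 in MHCII- cells at day 0; 7.67 in MHCII+ and 6.80 in MHCII- cells at day 1. Zbtb46, a dendritic cell transcription factor, averaged 7.95 in MHCII+ and 7.69 in MHCII- cells at day 0. The MHCII- means of Ccr7 and Flt3 and the MHCII- list means lay below the filter, so the sizes of those differences are uncertain. Flt3 and Zbtb46 were named after their values were seen, and the other genes of the list are not given singly here. The part of dendritic cells in the Cd209a levels was not tested.

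The order of the 18 group means differed between Cd209a and the other members. For Cd209a the day 0 MHCII+ group led without overlap, followed by the MHCII+ groups of days 1 and 4 with means of 12.31 to 12.36, which overlapped each other, and both day 1 MHCII- groups came last at 6.67 and 6.77. For Cd209f both day 0 groups led, then the 4 day 7 MHCII- groups with means of 11.76 to 12.03, which overlapped each other, and then 5 day 7 MHCII+ groups at 10.05 to 10.84. Cd209d and Cd209g had both day 0 groups first and the 4 day 7 MHCII- groups next, as had Cd209b. Of the 17 neighbouring pairs in each order, 6 (Cd209a), 2 (Cd209b), 5 (Cd209d), 6 (Cd209f) and 5 (Cd209g) did not overlap, so most neighbours did not differ beyond their spread.

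Over all 18 group means, Cd209b, Cd209d, Cd209f and Cd209g correlated with each other at 0.83 to 0.96 (Pearson), and Cd209a correlated with them at 0.35 to 0.67. Within the 8 MHCII- groups Cd209a correlated with the other 4 at 0.96 to 0.99; within the 10 MHCII+ groups it did so at 0.38 to 0.64. These points share arrays and normalization, and the correlations are descriptions. The MHCII+ groups of days 1 and 4, with high Cd209a and low Cd209f, set the subsets apart in the plot of Cd209a against Cd209f.

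**Figure D3:**
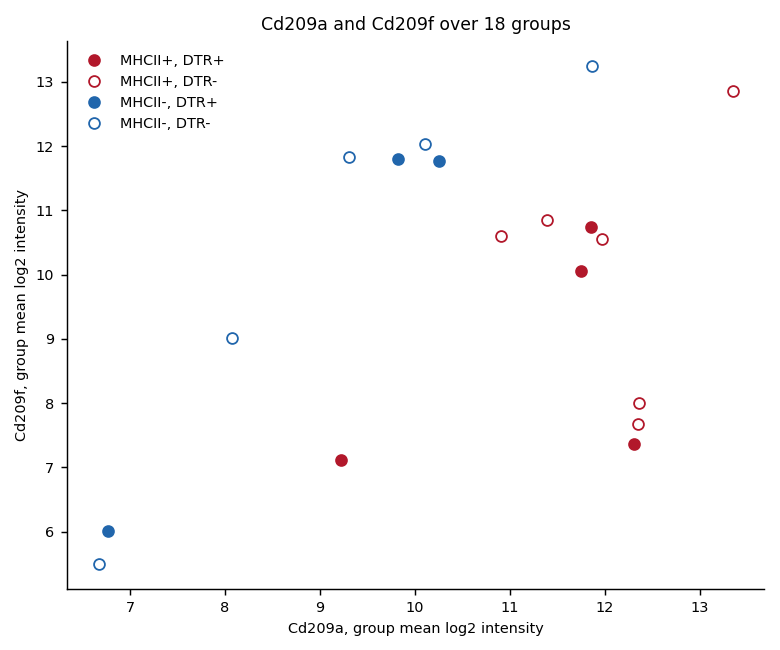
Group mean log2 intensity of Cd209a (horizontal) and Cd209f (vertical) in the 18 groups, red for MHCII+ and blue for MHCII-, filled for DTR+ and open for DTR-. Blue groups lie along a rising line (r = 0.96 over 8 groups), while 3 red groups have Cd209a at 12.31 to 12.36 and Cd209f at 7.36 to 8.00.

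The genes most like each member over the 18 group means, among the 11074 genes past the filter, differed between Cd209a and the rest. Cd209a was most like Rtn1, an endoplasmic reticulum protein (r = 0.95), then Ust, a sulfotransferase (0.92), Kmo, an enzyme of tryptophan breakdown (0.87), the lysozyme Lyz1 (0.86) and Cd74, the class II invariant chain (0.85). Cd209b and Cd209g were each most like the other (0.96), and both had the growth factor receptor Egfr among their top 5 (0.96 with each). The rest of the top 5 were Coro2b, the histamine receptor Hrh1 and Epn2 for Cd209b (0.95 each), and Slc9a3r2, Tmod1 and Adgrl4 for Cd209g (0.95 to 0.96). Cd209d was most like the growth factor receptor Fgfr1 (0.96), then Hrh1, Gfra2, Cd209f and Prr5 (0.91 to 0.93). Cd209f was most like Pla2g2d, a secreted phospholipase (0.96), then P3h2, Tln2, Rhoj and Trim47 (0.94 to 0.95).

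The neighbours in the cluster that are no members varied over narrower ranges, of 0.99 (Fcer2a), 1.78 (Cd209e), 2.43 (Clec4g) and 3.39 (Cd209c) log2 units over the arrays, against 3.90 (Cd209b) to 7.98 (Cd209f) in the members. The members were chosen by their levels on these arrays, and the neighbours lay mostly below the filter. Nothing is therefore drawn from the difference in range. Cd209c (SIGNR2) reached the filter in the day 0 MHCII+ group alone, at 9.41 and 9.16, against 6.76 and 7.43 in day 0 MHCII- arrays. Cd209e (SIGNR4) was at 8.39 and 7.98 in day 0 MHCII+ and at 8.25 and 8.16 in day 0 MHCII- arrays. Clec4g, an endothelial lectin of liver and lymph node, was at 8.74 and 8.66 in day 0 MHCII+ and at 6.87 and 6.97 in day 0 MHCII- arrays, and Fcer2a (CD23) stayed below the filter in all groups. Among 21 other myeloid C-type lectins past the filter, 6 were higher and 9 were lower on both day 1 than on both day 0 MHCII- arrays (median difference -0.01). Of all genes 40.8% were lower in that way. The median of the 5 members was -5.20, but they were chosen by their levels over the days. Their day 1 means in these cells also lay below the filter, so no comparison of the medians is drawn.

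The Foxp3.DTR genotype was tested as DTR+ against DTR- in 7 settings with limma over all 11074 genes. In the day 7 set with no DT time, 3 of 5 members fell in DTR+ MHCII+ cells at an adjusted p under 0.05; 11.5% of all genes were called there, 589 higher and 687 lower. Cd209f was at 6.95 and 7.29 in DTR+ arrays and at 10.58 and 10.63 in DTR- arrays, so that its DTR+ level lay below the filter. It fell by 3.49 ± 0.52 (SE; limma adjusted p = 8.4e-06), a size that is uncertain for that reason.

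Cd209a was at 9.47 and 8.98 in DTR+ arrays and at 10.88 and 10.94 in DTR- arrays of that set, and fell by 1.68 ± 0.34 (limma adjusted p = 0.00062). Cd209g was at 7.12 and 7.23 in DTR+ and at 8.18 and 8.39 in DTR- arrays, and fell by 1.11 ± 0.31 to a level below the filter (limma adjusted p = 0.013); its adjusted p was 0.053 to 0.125 when any 1 of the 4 arrays was left out. Cd209d was at 8.40 and 8.30 in DTR+ and at 9.55 and 9.45 in DTR- arrays and just missed the threshold (log2 difference -1.15 ± 0.39, limma adjusted p = 0.052). Cd209b was at 6.77 and 7.20 in DTR+ and 7.41 and 7.14 in DTR- arrays, below the filter and overlapping (-0.29 ± 0.33, limma adjusted p = 0.69). The cluster neighbour Cd209e rose by 0.93 ± 0.29, at 8.00 and 7.68 in DTR+ and 6.90 and 6.92 in DTR- arrays (limma adjusted p = 0.027), while Cd209c and Clec4g did not pass (-0.06 and -0.09).

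**Figure D4:**
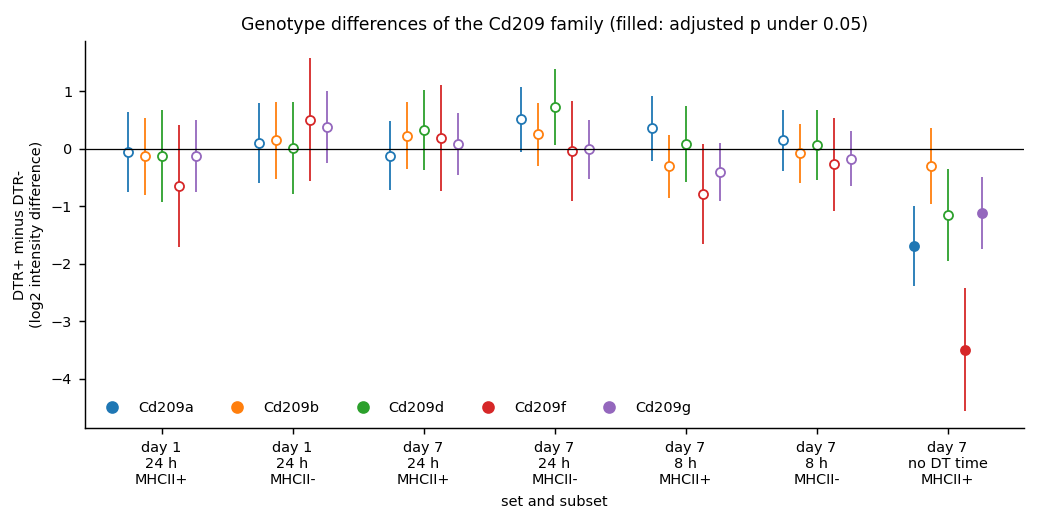
Log2 difference DTR+ minus DTR- of the 5 members in 7 settings, with 95% confidence intervals from the limma fit over 45 arrays. Filled points have an adjusted p under 0.05. Filled points occur only in the day 7 set with no DT time, where Cd209f lies at -3.49, Cd209a at -1.68 and Cd209g at -1.11.

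Other macrophage gene groups also moved in that set, where 11.5% of all genes were called. Of 15 resident macrophage genes tested, 0 rose and 11 fell (median -0.93, against -0.01 over all genes), including the highest of them, Selenop (-0.50 ± 0.10), Gas6, a ligand for uptake of dying cells (-2.43 ± 0.23), the chemokine Pf4 (-1.56 ± 0.14), Cbr2 (-1.51 ± 0.22) and the folate receptor Folr2 (-0.71 ± 0.11). Of 18 genes known to respond to interleukin 4 and STAT6, 9 rose and 0 fell (median 1.18), including the immune checkpoint ligand Pdcd1lg2 (5.69 ± 0.17) and the chemokine Ccl17 (4.23 ± 0.30). The mannose receptor Mrc1, which both of these lists and the lectin list hold, did not pass and differed by 0.01 ± 0.18. The lectin Mgl2 (1.39 ± 0.34) counts among the risen genes of both the interleukin 4 and the lectin list, so these counts are not independent. Of 21 other myeloid C-type lectins, 4 rose, including Olr1, a receptor for oxidized lipoprotein (3.42 ± 0.56), and Clec9a, a receptor for dead cells (3.19 ± 0.22). A further 4 fell, including Clec4d (-1.96 ± 0.25) and Cd93 (-1.43 ± 0.17), and the median was -0.06. Of 10 genes of DC-SIGN signalling and its ligands, the kinase Src (1.17 ± 0.19) and the adhesion molecule Icam2 (0.42 ± 0.13) rose and Ceacam1 fell (-0.69 ± 0.17). Over all arrays Pdcd1lg2 averaged 6.60 and Clec9a 6.71, below the filter, so the sizes of their rises are uncertain.

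Markers of some other cells differed there too, in a set where 11.5% of all genes were called. Dendritic cell genes had a mean level of 8.42 and 8.30 in DTR+ and 7.83 and 7.74 in DTR- arrays, with 2 of 8 risen (Itgax, and Clec9a, which the lectin list also holds) and Flt3 and Zbtb46 not called. Monocyte genes lay at 11.59 and 11.30 in DTR+ and 9.54 and 9.64 in DTR- arrays (3 of 7 risen, Chil3, F10 and Plac8, of which the interleukin 4 list also holds Chil3). Neutrophil genes lay at 7.04 and 6.87 in DTR+ and 6.65 and 6.74 in DTR- arrays, all below the filter. Of 10 neutrophil genes 1 was called, Mmp8, which rose. That share is no larger than the 11.5% of all genes called in either direction. Of 2 eosinophil genes tested 1 rose, Siglecf (1.00 ± 0.15), while Ccr3 did not pass (-0.37 ± 0.17). The endothelial gene Pecam1 rose (1.63 ± 0.19), while Cdh5 and Kdr did not pass. Of B and T cell genes Cd79b (-0.68 ± 0.22) and Cd2 (-0.81 ± 0.25) fell, while Cd22, Cd3e and Cd5 did not pass. Skeletal muscle genes lay at 8.14 and 8.35 in DTR+ and 9.10 and 8.86 in DTR- arrays, with 5 of 6 fallen. Of 8 macrophage genes 2 fell, Adgre1 (-0.35 ± 0.11) and Mertk (-0.47 ± 0.14). The part of these cells in the lectin differences was not tested.

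In the other 6 genotype comparisons 0 of 5 members passed. The share of all genes called was 0.0542% (MHCII+) and 0.00903% (MHCII-) in the 24 h day 7 set, 0.488% (MHCII+) and 0.0181% (MHCII-) in the 8 h set and 0 in both subsets at day 1. At an unadjusted p under 0.05 limma gave 716, 717, 2044, 486, 25 and 154 genes in these 6 comparisons, and 1 member value, that of Cd209d in 24 h MHCII- cells. The largest member difference was that of Cd209f in 8 h MHCII+ cells, at 9.11, 10.68 and 10.38 in DTR+ and 10.80, 11.13 and 10.61 in DTR- arrays. It amounted to -0.79 ± 0.43 (95% confidence interval -1.66 to 0.08, limma adjusted p = 0.31). The 8 h MHCII+ arrays spread widely in T cell genes. The mean level of the T cell list ran from 7.17 to 9.67 over them, against 7.08 to 7.49 in 24 h MHCII+ arrays. That of the regulatory T cell list ran from 6.53 to 8.16, against 6.68 to 7.04. The part of T cells in the lectin values was not tested.

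In 24 h MHCII- cells Cd209d was at 11.08, 11.29 and 11.52 in DTR+ and 10.73, 10.80 and 10.18 in DTR- arrays, which did not overlap but did not pass over all genes (0.73 ± 0.32, interval 0.08 to 1.38, limma adjusted p = 0.72). Cd209a was at 9.50, 9.62 and 10.35 in DTR+ and 9.31, 9.30 and 9.31 in DTR- arrays there (0.52 ± 0.28, limma adjusted p = 0.76). Cd209f and Cd209g differed by -0.04 ± 0.43 and -0.00 ± 0.25 in these cells, and without DTR+ replicate 3, at 10.42 for Cd209f, by 0.65 and 0.29 with limma adjusted p of 0.74 and 0.81. The intervals of the members in these 6 comparisons reached down to -1.71 and up to 1.58, so changes of that size remain possible.

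Averaged over the 7 within-set effects, 0 of 5 members passed, where 1.86% of all genes did. Cd209f came closest, at -0.65 ± 0.18 (limma adjusted p = 0.051), a mean that includes its -3.49 in the set with no DT time; 1301 genes had an unadjusted p under 0.05. Differences between genotype effects were tested between the 24 h and 8 h sets and between the subsets within each set: 0 of 5 members and 0% of all genes passed in each of the 4 tests, with 538 to 1319 genes at an unadjusted p under 0.05.

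The genotype effect of the set with no DT time was then set against those of the timed sets in MHCII+ cells, a comparison added after the data were seen. Against the 24 h set 2 of 5 members differed (7.52% of all genes): Cd209f by -3.68 ± 0.69 (limma adjusted p = 0.00046) and Cd209a by -1.57 ± 0.45 (limma adjusted p = 0.025). Against the 8 h set the same 2 of 5 differed (7.90% of all genes): Cd209f by -2.70 ± 0.68 (limma adjusted p = 0.0089) and Cd209a by -2.04 ± 0.44 (limma adjusted p = 0.0021). The Cd209a call against the 24 h set was lost when either 24 h DTR+ array, DTR+ replicate 2 or either DTR- array of the set with no DT time was left out (limma adjusted p 0.057 to 0.14). The Cd209f call against the 8 h set was lost without DTR+ replicate 1 of the set with no DT time (limma adjusted p = 0.065). Cd209d and Cd209g did not pass in either (adjusted p 0.068 to 0.30). Age, the DT labelling and, for the 8 h set, the SiglecF step differ between these sets and cannot be told apart. The 8 h MHCII+ arrays also spread from 7.17 to 9.67 in the mean of the T cell list.

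Arrays within a group differed in the whole family at once in part of the 8 h set. Replicate 2 was the highest for 5 of 5 members in the DTR- MHCII- group and in the DTR- MHCII+ group, and replicate 3 was the lowest for 5 of 5 in the DTR- MHCII- group. In the DTR+ MHCII- group replicate 3 was the highest for 5 of 5. For Cd209d this spread reached from 10.30 to 11.98 within the 4 DTR- MHCII- arrays, more than the difference between the group means of the genotypes there (0.06 ± 0.30). No array lay outside its group by Dixon's test in 10 sets of a member and a group of 4 arrays. These cover the 5 members in the 24 h DTR- MHCII+ and 8 h DTR- MHCII- groups alone. The groups of 2 or 3 arrays were not tested.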

How the data were processed

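Affymetrix Mouse Gene 1.0 ST arrays measured RNA of macrophages sorted from muscle. The deposited values are intensities on a linear scale, 1 per probe set and array, which the authors made by RMA in Affymetrix Power Tools, per the submitters' processing notes; no version is named there. RMA quantile-normalizes, so shifts of all genes are removed. Values were turned into log2 (no pseudocount). Of 24922 probe sets 21425 had 1 symbol, 1399 several and 2098 none listed; the brightest single-symbol probe set stood for a gene. Genes were tested when 1 group mean reached log2 7.57 (190 linear), the median of all values. Limma 3.58.1 (R 4.3.3) was fitted with 1 mean per group over all arrays, 27 residual degrees of freedom, an intensity trend and Benjamini-Hochberg adjustment (threshold 0.05). The members and lists were chosen with earlier results of these data known. Named genes were the members, the cluster neighbours, the 5 genes most correlated with each member, and per list up to 4 of highest mean and up to 2 of smallest p. Olr1, Clec4d, Icam2, Mertk, Mgl2, Flt3 and Zbtb46 were named after their values were seen. For arrays, their number limits the precision. The fit was tested on simulated data. Alternatives were array weights, the compared arrays only, quantile normalization, no filter, no trend, a replicate block, medians and leaving out each array. Each member had 1 probe set, so another probe set could not be tried. Promoters came from RefSeq (GRCm38.p6). Figures used Python 3.11.15 and matplotlib 3.10.9.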

Additional observations from a re-analysis of the deposited data

Results flagged for a closer look

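The genotype effect (DTR+ minus DTR-) in MHCII+ cells at day 7 differed between sets for Cd209f and Cd209a, by a test of the difference itself that was added after the data were seen. For Cd209f the effect in the set with no DT time minus that in the 24 h set was -3.68, and minus that in the 8 h set -2.70. For Cd209a these differences were -1.57 and -2.04. The effects themselves were -3.49 (no DT time), 0.19 (24 h) and -0.79 (8 h) for Cd209f, and -1.68, -0.12 and 0.36 for Cd209a. The Cd209a difference from the 24 h set was lost when any 1 of 5 arrays was left out (limma adjusted p 0.057 to 0.14), and the Cd209f difference from the 8 h set without 1 array (limma adjusted p = 0.065). Both differences share the 4 arrays of the set with no DT time. Set, age and DT labelling cannot be told apart.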

How the results depend on the processing

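With array weights, whose estimation stopped before it converged, 3 of 5 members passed in the 24 h MHCII- comparison (Cd209d 0.55, and Cd209f at 0.55 and Cd209g at 0.30 with the sign turned), 1 in the mean over the 7 effects, 3 in the difference between the 24 h and 8 h sets in MHCII- cells, and 4 in each of the 2 added differences. These are against 0, 0, 0, 2 and 2. The genes called then numbered 4157 in the 24 h MHCII- comparison, 3779 in the 8 h MHCII- comparison and 4462 in the set with no DT time, against 1, 2 and 1276; 929 passed for the mean over the 7 effects (206 before), 84 at day 1 in MHCII- cells (0), 4249 for the difference between timed sets in MHCII- cells (0) and 2219 for the added difference from the 8 h set (875). Leaving out single arrays gave 0 to 1 member for the mean over the 7 effects, 1 to 3 for the added difference from the 24 h set and 1 to 2 for that from the 8 h set, and 567 to 875 genes in the set with no DT time; 5 to 778 genes passed in the 8 h MHCII+ comparison, against 54. Over all alternatives 0 to 10 genes passed in the 24 h MHCII+ comparison (6), 2 to 778 in the 8 h MHCII+ comparison and 399 to 1267 for the added difference from the 24 h set (833). In the set with no DT time, Cd209f and Cd209a passed under all alternatives run (Cd209f -3.32 to -3.66, Cd209a -1.44 to -1.93 when an array was left out). Cd209d passed when the compared arrays alone were fitted (limma adjusted p = 2.4e-05) and with array weights (limma adjusted p = 0.00017), while Cd209g did not when 1 array was left out.

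In 24 h MHCII- cells the near-zero difference of Cd209f changed sign with quantile normalization (0.021) and when DTR+ replicate 3, DTR- replicate 1 or DTR- replicate 2 was left out (0.65, 0.14 and 0.06; -0.44 at the other end, without DTR+ replicate 2), and that of Cd209g with quantile normalization (0.037), when DTR+ replicate 3 (0.29) or DTR- replicate 1 (0.10) was left out (-0.16 without DTR+ replicate 2); the cause was not tested. Of 5 members, 1 had the higher mean in day 0 MHCII+ cells, and 1 to 2 when an array was left out. In MHCII+ cells 0 were higher at day 4 than at day 1, 1 with quantile normalization and 0 to 2 when an array was left out. Same-numbered arrays of the 2 genotypes did not deviate together in every pair (0.28, 0.092 and 0.20 in 24 h MHCII- cells), so the numbers were not taken to pair the genotypes, and a replicate block changed no count of members called (3 in the set with no DT time). Same-numbered MHCII+ and MHCII- arrays of a set and genotype deviated together at over 0.1 in 13 of 15 pairs (-0.26 to 0.58). In groups of 2 arrays the deviations mirror each other. The values of day 0 (0.24) and of day 1 (0.28 in DTR+ and 0.29 in DTR- mice) are therefore each counted 2 times. The labels do not say whether same-numbered arrays share an animal. A replicate block over subsets (random, correlation 0.39), added after the data were seen, left 0 members called in the mean over the 7 effects (132 genes, 206 without it; Cd209f limma adjusted p = 0.092) and in the subset differences of both timed sets. With 2 to 4 arrays per group, small differences and levels below the filter of 7.57 are out of reach.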
